A study of Mus musculus with 6 samples.

Results

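The subunits of respiratory complexes II to V and cytochrome c were followed in RNA-seq libraries of mouse skeletal muscle. The genes were taken by symbol from the table of all genes: Sdha to Sdhd, Cyc1 and the Uqcr genes, Cycs, the Cox4 to Cox8 genes and the Atp5 genes. Of 53342 genes in the table, 48 matched, and 46 of these had a value above the floor in at least 1 library. Cox7b2 and Cox8c, the other matches, were listed at 0 in every library. The 46 genes comprise 4 of complex II, 9 of complex III, cytochrome c itself, 16 of complex IV and 16 named after complex V.

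The 6 libraries stood for 3 genotypes of male mice, with 2 libraries each. Control mice are labelled as carrying loxP sites. LDKO mice are Irs1L/L:Irs2L/L:CreAlb, so that Cre driven by the albumin promoter of hepatocytes removes Irs1 and Irs2, the adaptors of the insulin receptor, in liver. LTKOFstL/L mice came from crossing LDKO with FstL/L, whose loxP sites flank exons 2 to 5 of the follistatin gene Fst, so liver Fst is targeted too. The muscle studied here therefore lies outside the tissue in which Cre acts. For all 6 the labels name a high fat diet, whereas the series text has chow from week 5 to week 16, and the sources used here do not settle which. Which muscle was taken is not stated, and nothing says that the 2 libraries of a genotype come from separate animals, so p-values measure only the spread between these samples.

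Electrons from succinate enter the respiratory chain at complex II (succinate dehydrogenase), pass through complex III (the cytochrome bc1 complex), ride on cytochrome c and reach oxygen at complex IV (cytochrome c oxidase). Protons pumped on the way drive complex V, the ATP synthase. Every subunit described here is encoded in the nucleus; the subunits of mitochondrial DNA were not analysed here. Contracting muscle draws much of its ATP from this chain, and striated muscle replaces the ubiquitous complex IV subunits Cox6a1, Cox7a2 and Cox8a in part by the muscle-type isoforms Cox6a2, Cox7a1 and Cox8b. In bulk tissue, fewer cells of a type and less RNA per cell cannot be told apart.

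The values are log2 expression centred on each gene's median over the 6 libraries, so 0 is the gene's own middle, 1 unit is a 2-fold difference, and levels of different genes cannot be compared. A gene's level could be bracketed from the rounding of the stored numbers. In its lowest library, the level was at log2 8 or more for 44 of the 46 genes. It was at log2 16 or more for Atp5a1 and Atp5b. Cox4i2 and Cox6b2 lay between log2 4 and 8. All 46 genes were in the test, which ran over 16777 genes.

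The 5 promoters below are shown because their genes behaved differently between libraries: Cycs, the muscle-type isoforms Cox7a1 and Cox8b, and the ubiquitous partners Cox6a1 and Cox8a. Each runs from 250 bases before to 50 after the start of the gene, from RefSeq on GRCm38.p6. Of the 46 genes, 36 had a promoter in that table. Capitals mark matches, on either strand, to the NRF1 core GCATGCGC, the cyclic AMP response element TGACGTCA, the ETS motif ACTTCCGG, the half-site AAGGTCA of the oestrogen-related receptors, or the E-box CAGCTG. In Cox6a1 a pair of NRF1 matches overlap.
Cycs (chr6:50566520-50566819, minus strand): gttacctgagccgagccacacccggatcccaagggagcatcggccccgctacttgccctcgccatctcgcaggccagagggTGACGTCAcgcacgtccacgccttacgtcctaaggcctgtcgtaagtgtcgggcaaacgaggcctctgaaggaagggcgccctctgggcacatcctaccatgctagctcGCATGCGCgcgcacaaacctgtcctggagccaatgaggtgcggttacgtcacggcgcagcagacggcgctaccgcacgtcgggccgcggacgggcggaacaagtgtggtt
Cox7a1 (chr7:30183921-30184220, plus strand): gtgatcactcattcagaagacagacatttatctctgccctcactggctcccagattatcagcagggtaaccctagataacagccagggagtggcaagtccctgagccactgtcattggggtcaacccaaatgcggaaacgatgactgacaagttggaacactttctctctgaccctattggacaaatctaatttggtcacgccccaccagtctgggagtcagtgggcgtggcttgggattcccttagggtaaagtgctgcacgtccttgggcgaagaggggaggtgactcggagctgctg
Cox8b (chr7:140900397-140900696, minus strand): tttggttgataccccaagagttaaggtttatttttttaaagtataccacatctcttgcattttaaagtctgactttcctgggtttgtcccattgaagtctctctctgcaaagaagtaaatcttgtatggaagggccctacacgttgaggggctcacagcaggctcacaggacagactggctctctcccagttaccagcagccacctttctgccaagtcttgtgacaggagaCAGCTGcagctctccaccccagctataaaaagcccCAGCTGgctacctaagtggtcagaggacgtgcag
Cox6a1 (chr5:115348909-115349208, minus strand): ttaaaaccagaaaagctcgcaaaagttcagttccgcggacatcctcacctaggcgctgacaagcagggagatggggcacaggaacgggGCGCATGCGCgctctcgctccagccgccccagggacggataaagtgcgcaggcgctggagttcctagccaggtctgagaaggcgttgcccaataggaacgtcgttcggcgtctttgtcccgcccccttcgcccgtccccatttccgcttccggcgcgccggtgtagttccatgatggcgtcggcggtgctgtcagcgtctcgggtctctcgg
Cox8a (chr19:7217567-7217866, minus strand): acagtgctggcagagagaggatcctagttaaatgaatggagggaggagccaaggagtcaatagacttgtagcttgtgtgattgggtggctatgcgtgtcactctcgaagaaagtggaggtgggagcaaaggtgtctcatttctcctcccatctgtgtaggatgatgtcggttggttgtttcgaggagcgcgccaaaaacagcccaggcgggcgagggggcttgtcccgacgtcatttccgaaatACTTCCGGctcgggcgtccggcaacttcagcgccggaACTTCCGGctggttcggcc

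Cycs held 1 match each to the NRF1 core and the cyclic AMP response element, Cox8a held 2 to the ETS motif, and Cox8b held 2 to the E-box. No match was found in the Cox7a1 window, which says only that these letters are not there. The NRF1 core occurred in 8 of the 36 subunit genes with a promoter (22.2%) and in 3.05% of 27025 genes with one. These 8 were Sdhb, Uqcr11, Uqcrc1, Cycs, Cox6a1, Atp5g2, Atp5k and Atp5l. The ETS motif was found in 4 of 36 against 4.31% of all genes with a promoter, and the receptor half-site in 5 of 36 against 5.38%. The response element was found in 2 of 36 against 2.03%, and the E-box in 2 of 36 against 18.3%. A match is a description of the letters and not of binding.

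No subunit gene passed the test in any comparison. With limma and an adjusted p under 0.05 as the threshold, 0 of 46 were called for LDKO against Control, where 0.232% of all tested genes were called. The count was also 0 of 46 for LTKOFstL/L against Control, with a background of 2.15%, and 0 of 46 for LTKOFstL/L against LDKO, with a background of 2.72%. With backgrounds this low, a count of 0 does not set the subunits apart from other genes. At an unadjusted p under 0.05, the members numbered 0, 1 and 1 in the same order, against 6.87%, 15.2% and 18.9% of all tested genes, and the 1 gene was Cycs both times. The authors' deposited table of differential genes, which holds only changes of 2-fold or more, contains 0 of the 46 among 1378 genes for LDKO against Control. It contains 0 among 2176 genes for LTKOFstL/L against Control and 0 among 2421 for LTKOFstL/L against LDKO. The 53342 genes are no like background for these counts, because 22929 of them never rose above the floor. How many of the 16777 tested genes stand in the lists was not counted. Whether counts of 0 set the subunits apart here was therefore not tested.

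The intervals show how closely the differences between these libraries were measured. Like the p-values, they reflect only the spread between these samples. Each is for 1 gene, without adjustment over genes or comparisons. The 95% interval of the difference lay within 2-fold in either direction for 45 of 46 genes in LDKO against Control, for 44 in LTKOFstL/L against Control and for 45 in LTKOFstL/L against LDKO. The exceptions were Cox6b2 in all 3 comparisons and Cox4i2 in LTKOFstL/L against Control, where its interval ran from -1.01 to 0.30. The standard error of a subunit's difference ran from 0.13 to 0.49, with a median of 0.20.

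**Figure D1:**
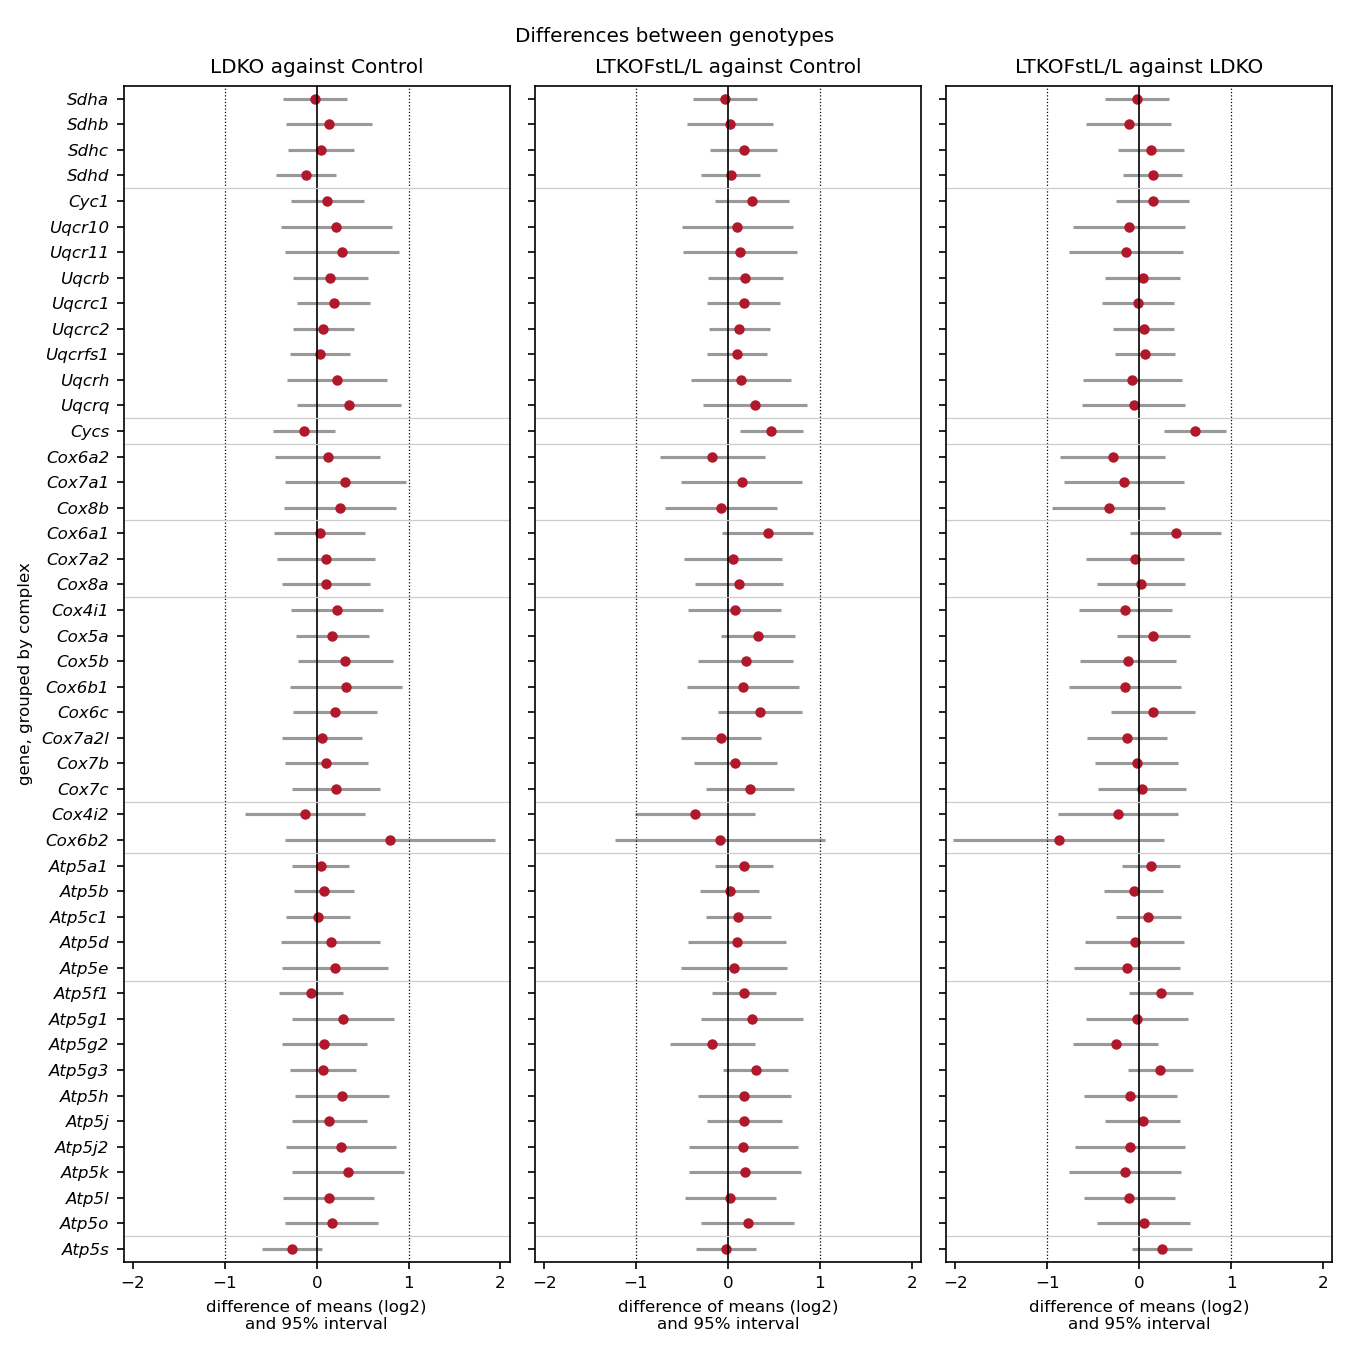
Differences of mean log2 values between genotypes for the 46 genes (points) with 95% intervals from limma (lines, n = 2 libraries per genotype). The x axis is in log2 units and the dotted lines mark a 2-fold change. Every interval crosses 0 except those of Cycs in LTKOFstL/L against Control and against LDKO.

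Cytochrome c stood nearest to a call. Cycs (ENSMUSG00000063694, GRCm38 chromosome 6, 50562563 to 50566538, protein-coding) makes the soluble carrier between complexes III and IV, and its release from mitochondria triggers apoptosis. Its centred log2 values were -0.09 and 0.09 for Control, -0.16 and -0.11 for LDKO, and 0.40 and 0.55 for LTKOFstL/L. Both LTKOFstL/L libraries were above all 4 others, and both LDKO libraries were just below the Control ones.

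The Cycs difference was 0.47 ± 0.14 (moderated SE, n = 2 libraries each) for LTKOFstL/L against Control, with a 95% interval of 0.13 to 0.81 and a limma adjusted p of 0.185. Against LDKO it was 0.61 ± 0.14, with an interval of 0.27 to 0.95 and a limma adjusted p of 0.0820. For LDKO against Control it was -0.14 ± 0.14 (limma adjusted p = 0.888). The 2 larger differences share the LTKOFstL/L libraries. Rows for processed pseudogenes of Cycs, Cycs-ps2 and Cycs-ps3, stand in the table and did not reach the tested level. How reads shared between such copies were counted is not given in the sources used here.

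**Figure D2:**
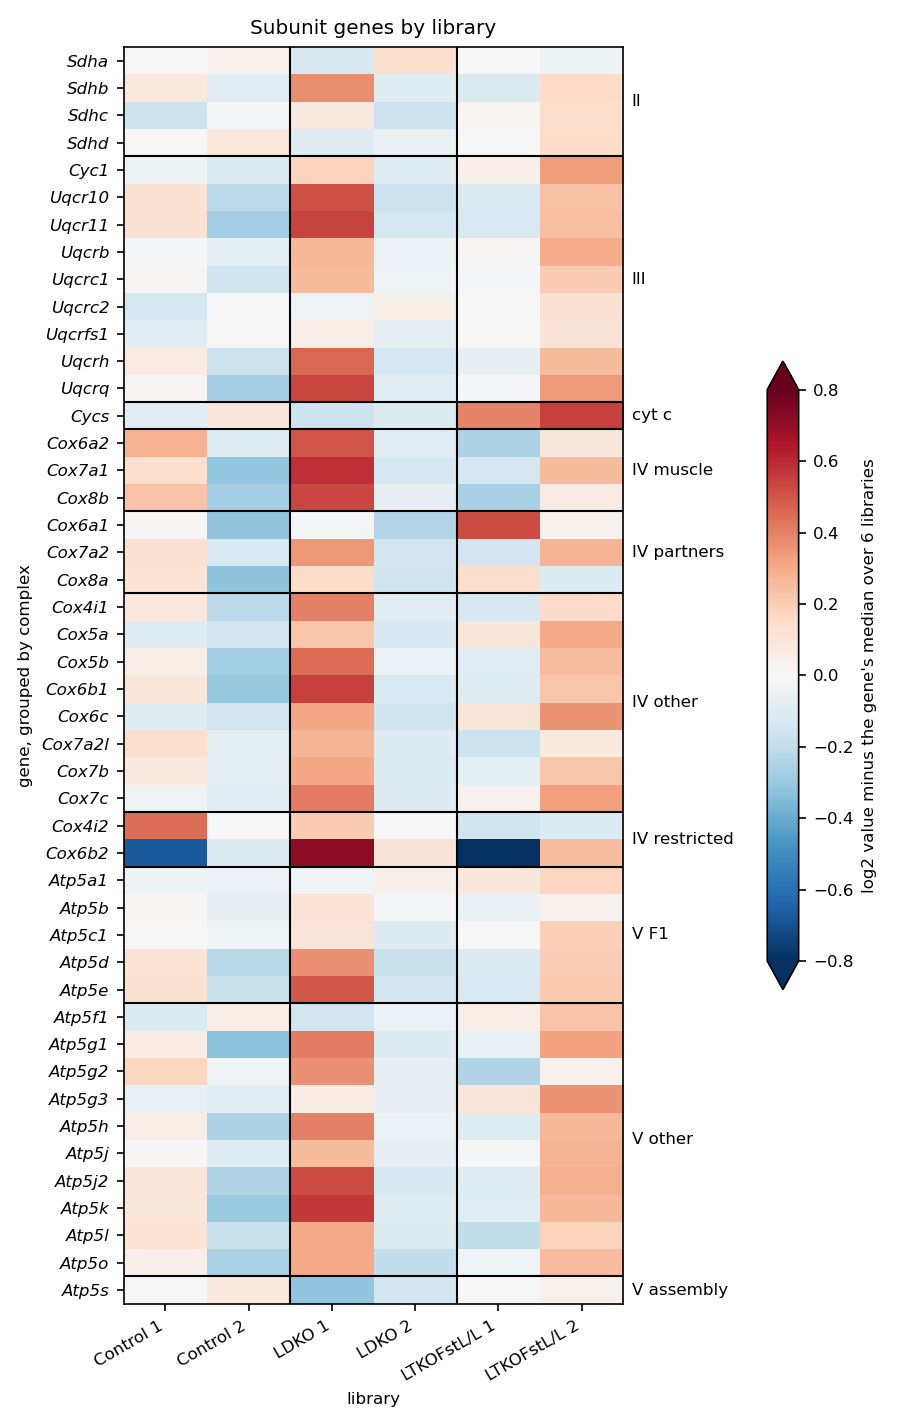
Centred log2 value (colour, 0 is the gene's median over 6 libraries) of each of the 46 genes in each library, grouped by complex. LDKO 1 is the highest library for 28 genes (23.9% of all tested genes) and Control 2 the lowest for 26 (15.3% of all tested genes). Cycs, Cox6a1, Atp5a1, Atp5f1 and Atp5g3 are highest in the 2 LTKOFstL/L libraries.

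The 2 libraries of a genotype differed in most subunits together, and by more in the median than the genotypes did. LDKO 1 was above LDKO 2 for 39 of 46 genes, by a median of 0.43, while 50.1% of all tested genes showed that direction. LTKOFstL/L 2 was above LTKOFstL/L 1 for 43 genes, by a median of 0.29, against 48.8% of all tested genes. Control 1 was above Control 2 for 37 genes, by a median of 0.21, against 50.5% of all tested genes. Per library, the median over the 46 genes was 0.04 and -0.12 in Control, 0.31 and -0.10 in LDKO, then -0.06 and 0.22 in LTKOFstL/L, while the median of all tested genes was 0.00 in each library to 2 decimals. The ranges of the 3 genotypes overlapped.

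Some subunits did not follow this pattern. Over the 6 libraries, Cox7a1 had a Pearson correlation over 0.9 with 22 of the other 45 genes. Sdha (median correlation with the other members -0.77), Atp5s (-0.52), Sdhd (-0.15), Atp5f1 (-0.07) and Cycs (-0.04) were below 0. All these points share the same 6 libraries, and the correlations are given as a description.

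The shared pattern went with length. Among the 17 subunits with a coding length of at most 300 bases, the median of LDKO 1 minus LDKO 2 was 0.61. It was 0.33 among the 18 of 301 to 600 bases, 0.24 among the 6 of 601 to 1200 and -0.07 among the 5 of 1201 to 2400. The same order held over all tested genes with a lowest level of at least log2 8, where the median fell from 0.42 in 206 genes of at most 300 bases to 0.26, 0.09, -0.02 and, in 1427 genes above 2400 bases, -0.12.

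For LTKOFstL/L 2 minus LTKOFstL/L 1, the subunits' medians in these classes were 0.33, 0.27, 0.23 and 0.09, and those of all such genes were 0.21, 0.14, 0.04, -0.03 and -0.08. In Control the subunits' medians were 0.33, 0.21, 0.05 and 0.01, and those of all such genes were 0.15, 0.07, 0.01, 0.01 and 0.02. Over the 46 genes, Spearman's rho between coding length and the library difference was -0.73 in LDKO, -0.59 in LTKOFstL/L and -0.47 in Control, as a description across genes that share libraries. Over 13741 tested genes with a coding length it was weaker, at -0.22, -0.19 and -0.03. Coding length was looked at after the values had been seen, and its part in the shared pattern was not tested.

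**Figure D3:**
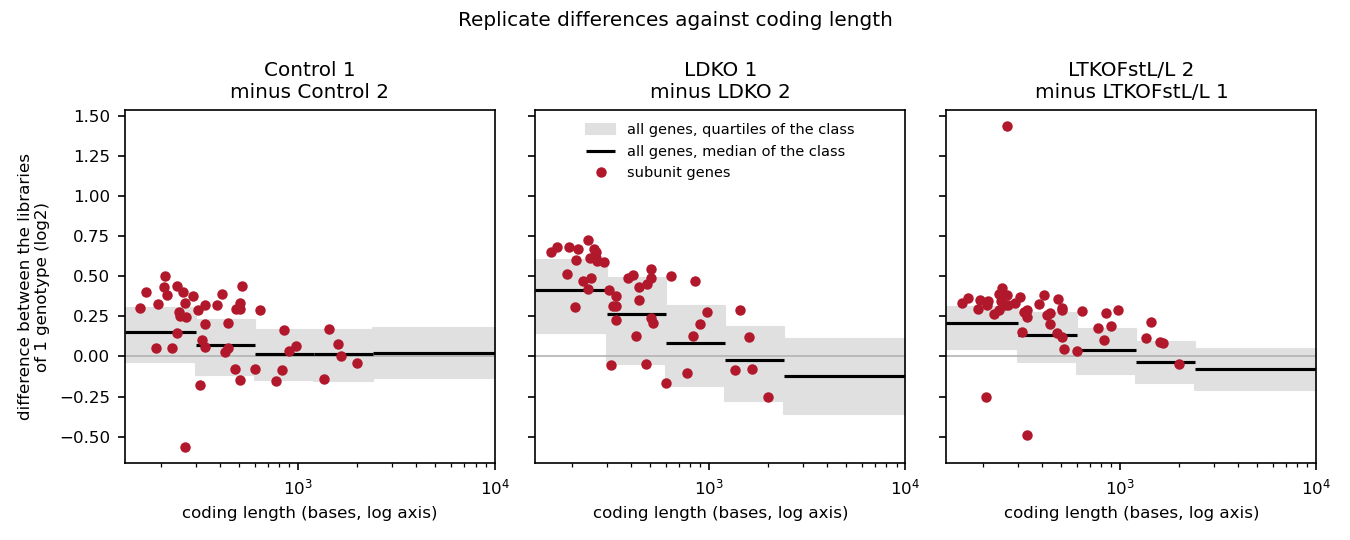
Difference between the 2 libraries of each genotype (log2) against coding length (bases, log axis) for the 46 subunit genes (red points). Black lines and grey bands give the median and quartiles of all tested genes with a lowest level of at least log2 8 in each length class; in LDKO the median falls from 0.42 to -0.12.

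Some markers of cell and fibre types differed between genotypes. Skeletal muscle RNA was present at high levels in every library: all 9 markers were tested, and 8 had a lowest-library level of at least log2 16. Medians over 10 slow-fibre markers were 0.05 and -0.37 in Control, 0.33 and 0.63 in LDKO, then -0.10 and -0.04 in LTKOFstL/L. Medians over 6 white adipocyte markers were -0.35 and -0.15, -0.96 and 0.14, and 1.99 and 0.91. Medians over the 9 tested of 10 pancreatic acinar markers were 12.5 and 8.59 in Control and between -2.37 and 1.29 in the other libraries. Both Control libraries, the reference for LDKO and for LTKOFstL/L, thus held far more RNA of these non-muscle genes than the others. Of 4 heart markers, Nppb was listed at 0 in every library. Nppa and Myl7 did not reach the tested level, so Myh6 alone of the heart markers was tested. In limma, 2 of the slow-fibre markers (Casq2 and Tnnt1) fell in LTKOFstL/L against LDKO, and 1 adipocyte marker (Retn) rose in LTKOFstL/L against either other genotype. Among 3 fibroblast markers Col1a1 also rose against both, by 1.45 over Control (limma adjusted p = 0.0491, and 0.0414 against LDKO). The other fibroblast markers, Dcn and Pdgfra, did not pass. Their LTKOFstL/L differences were -0.75 and -0.17 against Control, and 0.24 and 0.36 against LDKO. Against LDKO, Ucp1 of brown fat rose by 5.16 (limma adjusted p = 0.0480) and the heart gene Myh6 fell by 1.53 (limma adjusted p = 0.0244). The lowest-library level of Ucp1 was low, with a bracket starting at log2 2. Its values were 0.19 and -0.19 in Control, -2.35 and -3.21 in LDKO, then 4.31 and 0.45 in LTKOFstL/L. Against Control, Ucp1 in LTKOFstL/L differed by 2.38 and did not pass (limma adjusted p = 0.359). The other brown fat markers on its list, Cidea and Dio2, differed from LDKO by 0.29 and 0.37 and did not pass. No leukocyte or skeletal muscle marker passed in any comparison. Of the acinar markers, 8 fell in LDKO and 9 in LTKOFstL/L against Control. The library with the highest slow-fibre median, LDKO 2, had a subunit median of -0.10. LDKO 1, next in slow-fibre median, had the highest subunit median, 0.31. Control 2, lowest in slow-fibre median, also had the lowest subunit median, -0.12. Sums over a list cannot be formed from centred values. The part of these markers in any subunit difference was not tested.

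The 4 genes of complex II had the smallest median differences between Control and either other genotype among complexes II to V. Sdha, the flavoprotein that oxidises succinate (chromosome 13, 74322254 to 74350280), had values of 0.00 and 0.04 in Control, -0.13 and 0.13 in LDKO, then 0.00 and -0.04 in LTKOFstL/L. The 2 LDKO libraries bracketed all others, with LDKO 2 the higher one, opposite to most subunits. Its differences were -0.01 ± 0.15 for LDKO against Control, -0.03 ± 0.15 for LTKOFstL/L against Control and -0.02 ± 0.15 for LTKOFstL/L against LDKO.

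Sdhb, the iron-sulphur subunit that hands electrons on, had values of 0.08 and -0.08, 0.37 and -0.10, and -0.11 and 0.16. It did follow the shared pattern, and its genotypes overlapped. The membrane anchors Sdhc and Sdhd ranged over 0.31 and 0.24 across the 6 libraries. The median difference of the 4 genes was 0.01 for LDKO against Control, 0.03 for LTKOFstL/L against Control and 0.05 for LTKOFstL/L against LDKO.

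In complex III all 9 genes had a positive difference in LDKO against Control (median 0.18, range 0.04 to 0.35) and in LTKOFstL/L against Control (median 0.15, range 0.10 to 0.29). None passed, the smallest adjusted p in limma being 0.836 and 0.532. These 2 comparisons share the Control libraries. Between LTKOFstL/L and LDKO 4 differences were positive and 5 negative, with a median of -0.01.

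Cyc1, the cytochrome c1 haem subunit, had values of -0.04 and -0.11 in Control, 0.18 and -0.10 in LDKO, then 0.04 and 0.33 in LTKOFstL/L. Both LTKOFstL/L libraries were above both Control libraries, and LDKO overlapped both groups. The difference of LTKOFstL/L against Control was 0.26 ± 0.17 (limma adjusted p = 0.532). Uqcrc1, a core protein, had values of 0.01 and -0.16, 0.25 and -0.04, and -0.01 and 0.20.

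Uqcrfs1, the Rieske iron-sulphur protein, had values of -0.09 and 0.00, 0.05 and -0.07, and 0.00 and 0.10, the narrowest range in complex III at 0.19. Uqcrq, a small subunit of the membrane part, was among the 3 largest differences of LDKO against Control. Its values were 0.01 and -0.27 in Control, 0.53 and -0.08 in LDKO, then -0.01 and 0.34 in LTKOFstL/L. LDKO 1 was above all other libraries and LDKO 2 lay between the Control ones, for a difference of 0.35 ± 0.24 (limma adjusted p = 0.836).

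The muscle-type isoforms of complex IV had the shared library pattern in strong form, as did other short subunits. The gap between the LDKO libraries was 0.60 for Cox8b and 0.59 for Cox6a2, against 0.68 for both Uqcr10 and Uqcr11 of complex III. Cox7a1 (chromosome 7, 30184144 to 30186078), had values of 0.13 and -0.31 in Control, 0.59 and -0.14 in LDKO, then -0.13 and 0.25 in LTKOFstL/L. Its gap of 0.72 between the LDKO libraries was the largest among the 46 genes for that pair. The difference of LDKO against Control was 0.31 ± 0.28 (limma adjusted p = 0.875), less than this gap.

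Cox8b (chromosome 7, 140898945 to 140900446) had values of 0.23 and -0.27, 0.54 and -0.07, and -0.26 and 0.07. Cox6a2 (chromosome 7, 128205435 to 128206387) had values of 0.28 and -0.10, 0.50 and -0.09, and -0.25 and 0.09. For both, library 1 of Control and of LDKO was high and the genotypes overlapped in every comparison. The differences of LTKOFstL/L against LDKO were -0.33 ± 0.26 for Cox8b and -0.29 ± 0.24 for Cox6a2 (limma adjusted p = 0.540 and 0.573).

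The ubiquitous partners did not share 1 pattern. Cox7a2 (values 0.12 and -0.12, 0.35 and -0.15, -0.16 and 0.27) was high and low in the same libraries as its muscle-type counterpart. Cox6a1 (chromosome 5, 115345642 to 115348981) had values of 0.01 and -0.31 in Control, -0.01 and -0.23 in LDKO, then 0.52 and 0.04 in LTKOFstL/L. It was highest in LTKOFstL/L 1, where most subunits were low, and both LTKOFstL/L libraries were above all others.

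The Cox6a1 difference was 0.43 ± 0.21 for LTKOFstL/L against Control and 0.40 ± 0.21 for LTKOFstL/L against LDKO (limma adjusted p = 0.398 and 0.363). Without LTKOFstL/L 1 these were 0.19 and 0.16, and without LTKOFstL/L 2 they were 0.68 and 0.64. Cox8a, with values of 0.11 and -0.32, 0.15 and -0.16, and 0.14 and -0.11, was also higher in LTKOFstL/L 1 than in LTKOFstL/L 2. Sdha was the third gene of the 46 with that direction. In LTKOFstL/L 1 the median of the white adipocyte markers was 1.99 and Ucp1, the uncoupling protein of brown fat, was at 4.31, against 0.91 and 0.45 in LTKOFstL/L 2. Their part in the Cox6a1 and Cox8a values was not tested.

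Within a library, Cox6a2 minus Cox6a1 was 0.27 and 0.21 in Control, 0.51 and 0.14 in LDKO, then -0.77 and 0.05 in LTKOFstL/L. Both LTKOFstL/L values were below the other 4. The mean difference was -0.60 against Control and -0.69 against LDKO, each with an exact two-sided permutation p of 0.333, the smallest that 2 against 2 libraries allow. Without LTKOFstL/L 1 the differences were -0.19 and -0.28, so this library decides their size.

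Cox7a1 minus Cox7a2 was 0.01 and -0.18 in Control, 0.24 and 0.01 in LDKO, then 0.02 and -0.01 in LTKOFstL/L. LDKO 2 and Control 1 were equal to 2 decimals, and the difference of LDKO against Control was 0.21 (exact permutation p = 0.333). It was 0.096 without LDKO 1, 0.12 without Control 2 and 0.33 without LDKO 2. Cox8b minus Cox8a was 0.12 and 0.05, 0.39 and 0.10, and -0.40 and 0.18, and the genotypes overlapped. For LTKOFstL/L against Control its difference was -0.19, and it was 0.09 without LTKOFstL/L 1.

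**Figure D4:**
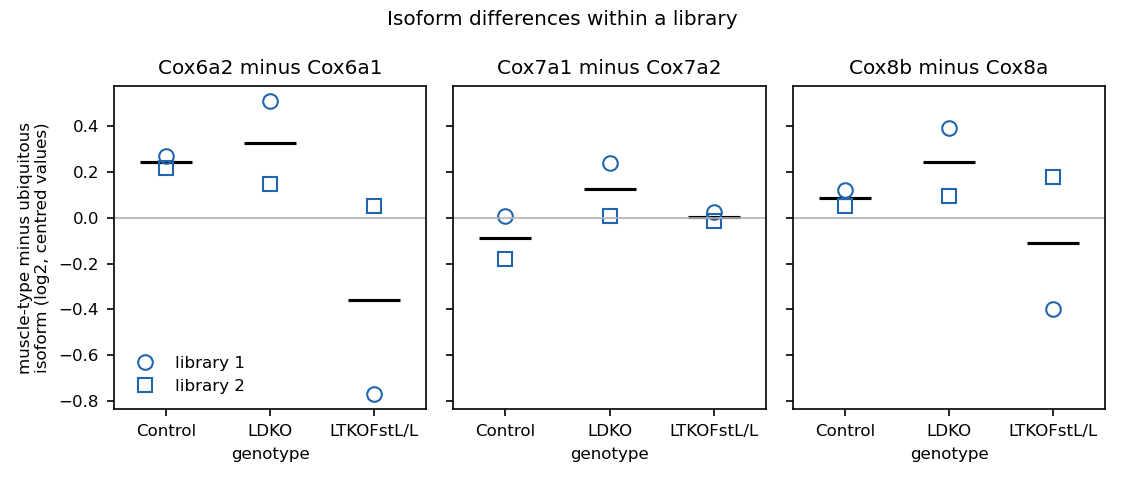
Muscle-type minus ubiquitous isoform in each library (y axis, difference of centred log2 values) for 3 pairs of complex IV subunits, by genotype. Circles are library 1, squares library 2 and bars the mean of 2; LTKOFstL/L 1 is the lowest point for Cox6a2 minus Cox6a1 at -0.77 and for Cox8b minus Cox8a at -0.40.

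The other 8 complex IV subunits all had positive differences in LDKO against Control (median 0.20, range 0.06 to 0.32), and in LTKOFstL/L against Control 7 of 8 did (median 0.18). Cox4i1, the regulatory subunit that binds ATP, had values of 0.09 and -0.21 in Control, 0.40 and -0.09 in LDKO, then -0.13 and 0.16 in LTKOFstL/L. Its genotypes overlapped throughout. Cox5a had values of -0.10 and -0.15, 0.22 and -0.13, and 0.10 and 0.30.

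Cox6c had values of -0.10 and -0.15, 0.31 and -0.16, and 0.10 and 0.36. For Cox5a and Cox6c the LTKOFstL/L libraries lay above both Control libraries, with differences of 0.33 ± 0.17 and 0.35 ± 0.19 (limma adjusted p = 0.430 and 0.457). Cox7a2l, which helps join complexes III and IV into supercomplexes, was the 1 subunit of these 8 with a negative difference of LTKOFstL/L against Control, at -0.07 ± 0.18.

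The isoforms of restricted tissue had the lowest levels. Cox4i2, the hypoxia-responsive counterpart of Cox4i1 best known from lung, had values of 0.45 and 0.00 in Control, 0.20 and 0.00 in LDKO, then -0.16 and -0.11 in LTKOFstL/L. Both LTKOFstL/L libraries were below all others, with differences of -0.36 ± 0.28 against Control and -0.23 ± 0.28 against LDKO (limma adjusted p = 0.618 and 0.705). Cox6b2, the testis counterpart of Cox6b1, had values of -0.67 and -0.10, 0.72 and 0.10, and -1.18 and 0.25, with the widest range of the 46 genes at 1.90. Its largest difference, LTKOFstL/L against LDKO, was -0.88 ± 0.49 (limma adjusted p = 0.388), and the groups overlapped.

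In the catalytic F1 head of complex V, Atp5a1, Atp5b and Atp5c1 ranged over 0.18 to 0.29 across the libraries, and the shorter Atp5d and Atp5e over 0.59 and 0.68. Atp5a1, the alpha subunit (chromosome 18, 77773729 to 77782869), had values of -0.04 and -0.04 in Control, -0.04 and 0.04 in LDKO, then 0.09 and 0.17 in LTKOFstL/L. LTKOFstL/L was above both other genotypes, while the lower LDKO library equalled Control to 2 decimals. The differences were 0.04 ± 0.13 for LDKO against Control, 0.17 ± 0.13 for LTKOFstL/L against Control and 0.13 ± 0.13 for LTKOFstL/L against LDKO (limma adjusted p = 0.964, 0.614 and 0.645). Atp5b, the catalytic beta subunit, had values of 0.01 and -0.07, 0.11 and -0.01, and -0.06 and 0.03, a range of 0.18. The 5 F1 genes had median differences of 0.08, 0.10 and -0.05 in these comparisons.

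Among the 10 genes of the stalk, the membrane part and the c-ring, 9 had positive differences in LDKO against Control (median 0.15) and 9 in LTKOFstL/L against Control (median 0.18), and none passed. The 3 c-ring genes encode the same mature protein, and differences between them were not tested. Atp5g2 had values of 0.17 and -0.03, 0.37 and -0.07, and -0.24 and 0.03. Atp5g3 was at -0.06 and -0.09, 0.06 and -0.07, and 0.10 and 0.36, above both other genotypes in both LTKOFstL/L libraries.

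The difference of LTKOFstL/L against Control was -0.17 ± 0.20 for Atp5g2, 0.30 ± 0.15 for Atp5g3 and 0.26 ± 0.24 for Atp5g1 (limma adjusted p = 0.754, 0.410 and 0.674). Atp5k, the small e subunit, had values of 0.09 and -0.29, 0.57 and -0.10, and -0.09 and 0.26. LDKO 2 again lay between the Control libraries, and the LDKO difference was 0.34 ± 0.26 (limma adjusted p = 0.852). Atp5s, the coupling factor B-like gene grouped here as assembly-related, had values of 0.00 and 0.08 in Control, -0.31 and -0.15 in LDKO, then 0.00 and 0.03 in LTKOFstL/L. Both LDKO libraries were below all others, with a difference of -0.27 ± 0.14 against Control (limma adjusted p = 0.787).

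Counted over all 46 genes, 40 differences were positive in LDKO against Control (median 0.14) and 38 in LTKOFstL/L against Control (median 0.14), against 50.2% of all tested genes in each. LTKOFstL/L against LDKO gave 19 positive and 27 negative differences, with a median of -0.03. The counts turn on single libraries. Without LDKO 1, 12 of the 46 differences of LDKO against Control were positive and the median was -0.05. Without LDKO 2, 40 were positive, the median was 0.34, and 16 genes had an unadjusted limma p under 0.05, but none passed (smallest adjusted p = 0.209). Without Control 2 the median was 0.05.

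The other comparisons turned in the same way. For LTKOFstL/L against Control, the median was 0.00 without LTKOFstL/L 2, with 23 genes positive, and 0.03 without Control 2. It was 0.27 without LTKOFstL/L 1 and 0.22 without Control 1. For LTKOFstL/L against LDKO, the median was 0.19 with 41 genes positive without LDKO 1, and -0.26 with 12 positive without LDKO 2. It was 0.10 without LTKOFstL/L 1 and -0.19 without LTKOFstL/L 2.

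Genes whose 2 groups of libraries did not overlap were counted as well. In LDKO against Control, 2 of 46 were higher (Cox6b2 and Atp5a1) with 16.3% of all tested genes so placed, and 3 were lower (Sdhd, Cycs and Atp5s) against 17.1%. In LTKOFstL/L against Control, 13 of 46 were higher (28.3%), close to the background of 25.1%, and 1 was lower (Cox4i2) against 24.7%. In LTKOFstL/L against LDKO, 7 were higher (15.2%) against 25.1%, and 1 was lower (Cox4i2) against 24%.

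Factors that build these complexes, listed apart from the subunits, gave the same count of calls. All 32 assembly factors on the list were tested, and none passed in limma in any of the 3 comparisons. At an unadjusted p under 0.05 there were 2, 7 and 6 of them, where 6.87%, 15.2% and 18.9% of all tested genes were, and their median differences were 0.04, 0.26 and 0.24. In LTKOFstL/L against Control, Coa7 had the smallest limma adjusted p of the 32, at 0.143. In LTKOFstL/L against LDKO it was Coa6, needed to bring copper to complex IV. Coa6 had values of 0.00 and 0.00 in Control, 0.00 and -0.21 in LDKO, then 0.53 and 0.48 in LTKOFstL/L. Its differences were 0.51 ± 0.14 against Control and 0.61 ± 0.14 against LDKO (limma adjusted p = 0.149 and 0.0762). Atpif1, the inhibitor of the ATP synthase, had values of 0.13 and -0.21, 0.41 and -0.13, and -0.38 and 0.13, which overlapped.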

How the data were processed

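Per the labels' protocols, TRI Reagent was used for muscle RNA and a SMARTer mRNA kit for the libraries. The build was mm10, per the submitters' processing notes. How reads were aligned, counted and normalized is not given in the sources used here, and read depth is unknown. The authors' deposited table gives log2 values. As judged from these, they are library-scaled, floored where the scaled value is 1, and centred on each gene's median. The deposited gene lists give p-values from the authors' own test and log2 fold changes, and served for a count of shared genes.

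A model with 1 mean per genotype was fitted with limma 3.58.1 in R 4.3.3 to all 6 libraries and 16777 genes that reached log2 4 in at least 2 libraries. Robust moderation used a prior in 3 strata of level, with 3 residual degrees of freedom. P-values are two-sided, adjusted by Benjamini-Hochberg over all genes, with a threshold of 0.05. The fit was tested on simulated data. Isoform pairs were compared within a library by exact permutation. Coordinates and lengths come from GENCODE M21 (GRCm38).

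Values in every library are given for isoform pairs, Cycs, core subunits, and the 3 largest and 3 smallest differences of each comparison. Members and lists were chosen with earlier results of these data known.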

Additional observations from a re-analysis of the deposited data

How the results depend on the processing

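The count of subunit genes that passed was 0 in every comparison under all 7 other settings and all 6 fits that left out a library, the smallest limma adjusted p being 0.209 for LDKO against Control, then 0.122 and 0.0628 for LTKOFstL/L against Control and against LDKO, the order used below. Leaving out a library moved the subunits' median difference between -0.05 and 0.34, 0.00 and 0.27, and -0.26 and 0.19; the other settings kept it at 0.14, within 0.13 to 0.15 and within -0.04 to -0.03.

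The count over all genes (39, 361 and 456) depended on the settings. Without a level filter it was 2, 101 and 212, and with a single prior variance 1, 41 and 58. At a level of at least 8 it was 1 for LDKO against Control. With only the groups compared it was 636 for LTKOFstL/L against Control and 289 for LTKOFstL/L against LDKO. Leaving out a library gave 3 to 78, 82 to 636 and 53 to 724. A library left out of the genotype not compared acts as leaving that genotype out, since its lone partner adds nothing to the spread.

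With the replicate number as a block, LTKOFstL/L against LDKO gave 291 genes, and subunit calls stayed at 0. The sources used here do not say whether the numbers pair the libraries. Over 16777 genes, deviations of same-numbered libraries correlated at 0.21 for Control and LDKO. The correlation was -0.06 for Control and LTKOFstL/L and -0.19 for LDKO and LTKOFstL/L. These values cannot settle whether same-numbered libraries were handled together.

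Leaving out a library, chosen after seeing the data for the isoform pairs, moved Cox6a2 minus Cox6a1 between -1.01 and -0.19 for LTKOFstL/L against Control and between -1.10 and -0.28 for LTKOFstL/L against LDKO. Cox8b minus Cox8a moved between -0.48 and 0.092, and between -0.64 and -0.066. The cause of these changes was not tested. With 2 libraries a genotype and no read totals, resolution was limited. A difference smaller than its interval's reach to either side could not be told from 0.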
